A study of Arabidopsis thaliana with 12 samples.

Results

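A module of 65 Arabidopsis thaliana genes was defined by opposite levels in roots of transgenic lines: higher than in the wild type in both lines that overexpress an ERF transcription factor, and lower in a line that expresses one of those factors fused to a repressor. The stated purpose of the study was to find targets of both factors. It compared WT (Col-0) with ERF115OX (35S:ERF115), ERF114OX (35S:ERF114) and ERF115-SRDX (35S:ERF115-SRDX), each with 3 libraries made from roots of 4-day-old seedlings. The 35S promoter is active in nearly all plant cells, so the transgenes were not restricted to the cells that normally express these factors. The labels give neither the number of independent lines nor the source plants of each replicate, so the spread between libraries may be technical. In the genotype field, the ERF114OX samples are also called ERF115OX, and grouping followed the sample titles.

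The members were chosen from these same values. With L the log2 of a group's mean normalized count plus 1, a member had a WT mean of at least 50 and an L at least 0.8 above WT in ERF115OX and in ERF114OX and at least 0.8 below WT in ERF115-SRDX. Of 37884 genes in the table, 20834 had a WT mean of at least 50, and 65 met all conditions. All differences of these genes from WT are therefore a description and carry no test. A normalized count is a gene's read count divided by 1 size factor per library, and because it is not divided by gene length, levels of different genes are not compared.

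ERF115 and ERF114 belong to the AP2/ERF family of plant transcription factors, and ERF115 is known for driving cell division in the root stem cell niche and in regeneration after wounding. The SRDX peptide is a short repression motif, and its fusion to an activator is used to turn the activator's targets down. The gene for phytosulfokine precursor PSK5 has been described as a target of ERF115. Phytosulfokine is a sulfated peptide hormone that promotes cell growth and division through a receptor kinase at the cell surface.

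ERF115 stood at 34638, 38360 and 36973 normalized counts in ERF115OX and at 84451, 88807 and 83518 in ERF115-SRDX, where reads of the fusion transcript would count towards the gene. In WT it stood at 4.86, 23.4 and 561, so WT 3 was high for this gene while remaining far below both ERF115 lines. ERF114 stood at 44417, 47807 and 47331 in ERF114OX and between 2.01 and 104 in the other 9 libraries. Libraries held 47242114 to 48343410 reads. A list of 20 photosynthetic genes, which mark greening or shoot cells, differed widely between libraries. Its mean log2 level was 14.59 to 15.60 in WT, 13.70 to 14.23 in ERF115OX and 12.50 to 14.39 in ERF114OX, and in ERF115-SRDX it was 8.43, 12.85 and 8.64. The mean log2 level of the 65 module genes was 8.24 to 8.32 in WT, 9.49 to 9.65 in ERF115OX, 9.40 to 9.60 in ERF114OX and 6.04, 6.35 and 6.15 in ERF115-SRDX. The levels of the module are those that chose it. The part of the photosynthetic genes in them was not tested. The mean log2 level of 14 root hair genes was 9.94 to 10.15 in WT, 10.82 to 10.87 in ERF115OX, 10.62 to 10.70 in ERF114OX and 9.87 to 9.92 in ERF115-SRDX. The mean of the root hair list was thus above WT in both overexpressors and just below the lowest WT library in ERF115-SRDX. Single genes differed, as EXPA18, RHD6, LRX1, RHD2, RHS13 and MRH6 had higher means in ERF115-SRDX than in WT. RSL2 was lower in ERF114OX than in WT (725 against 746). The 3 non-hair epidermis genes had a mean level of 8.77 to 8.92 in WT and 8.37 to 8.53 in ERF115OX. In ERF114OX it was 8.49 to 8.62 and in ERF115-SRDX 8.82 to 8.87. The mean log2 level of 8 phloem and procambium genes was 8.96 to 9.205 in WT and 9.212 to 9.226 in ERF115OX. In ERF114OX it was 9.35 to 9.44 and in ERF115-SRDX 8.63 to 8.80. This mean had the directions of the module in every line, in ERF115OX by a narrow margin over WT. Among the single genes, ATHB8, PXY, WOX4 and APL had these directions in their group means, whereas SUC2, SEOR1, NAC045 and NAC086 did not. SUC2 was at 1981 in ERF115OX and 2459 in ERF114OX, against 2684 in WT. A list of 12 stomatal and aerial epidermis genes was at 6.73 to 7.58 in WT, 4.271 to 6.002 in ERF115OX, 4.17 to 5.76 in ERF114OX and 2.83 to 4.30 in ERF115-SRDX, below WT in every line. The root cap list, with 5 of 6 symbols found, was below WT in ERF115-SRDX, at 8.505 to 8.717 against 8.96 to 9.23. Its symbol BRN2 was matched to AT1G03457, which may not be the root cap gene meant. SMB, BRN1, FEZ and CEL5 were also below WT there in their means, with CEL5 at 1716 against 3196. None of the genes of these lists is a member, and the part of each list in the levels of the module was not tested. These are bulk samples, so fewer cells of a type and less RNA per cell cannot be told apart.

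The sequences upstream of 6 members are printed here because they show the range of promoters behind a shared pattern. GCCGCC is the core of the GCC box, the element that ERF proteins are known to bind, and CACGTG is the G-box, a common element bound by bZIP and bHLH factors. Each line gives the 250 bases before the annotated start of the gene, 5′ to 3′ on the gene's own strand, taken by locus tag from RefSeq's TAIR10.1 annotation, and capitals mark GCCGCC or its reverse complement GGCGGC, and CACGTG. The build that the authors used is not given in the sources used here, so no coordinates are printed. AT3G59930 and PDC2 were the members with a GCCGCC, PDC2 and AT1G69480 each held 2 copies of CACGTG, and PSK5, CLE2 and RAP2.9 held neither.
AT3G59930 (chromosome 3, minus strand): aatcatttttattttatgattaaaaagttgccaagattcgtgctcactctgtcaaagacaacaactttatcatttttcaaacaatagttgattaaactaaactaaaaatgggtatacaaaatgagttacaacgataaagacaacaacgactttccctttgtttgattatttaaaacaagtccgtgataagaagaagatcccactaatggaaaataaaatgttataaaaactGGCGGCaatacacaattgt
PDC2 (chromosome 5, minus strand): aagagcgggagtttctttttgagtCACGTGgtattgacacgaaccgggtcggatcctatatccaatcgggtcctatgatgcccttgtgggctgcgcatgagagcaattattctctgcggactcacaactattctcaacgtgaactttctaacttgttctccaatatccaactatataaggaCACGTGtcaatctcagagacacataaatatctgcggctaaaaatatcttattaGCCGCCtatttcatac
AT1G69480 (chromosome 1, minus strand): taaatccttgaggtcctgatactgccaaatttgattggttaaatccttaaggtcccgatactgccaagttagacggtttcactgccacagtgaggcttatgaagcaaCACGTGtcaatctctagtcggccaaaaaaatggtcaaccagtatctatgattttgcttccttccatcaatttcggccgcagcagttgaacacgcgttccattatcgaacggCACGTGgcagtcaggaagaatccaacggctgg
PSK5 (chromosome 5, plus strand): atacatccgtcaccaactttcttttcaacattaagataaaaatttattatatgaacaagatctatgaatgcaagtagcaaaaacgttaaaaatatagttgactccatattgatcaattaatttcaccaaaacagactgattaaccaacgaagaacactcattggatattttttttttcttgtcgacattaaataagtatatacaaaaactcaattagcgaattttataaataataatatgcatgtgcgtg
CLE2 (chromosome 4, plus strand): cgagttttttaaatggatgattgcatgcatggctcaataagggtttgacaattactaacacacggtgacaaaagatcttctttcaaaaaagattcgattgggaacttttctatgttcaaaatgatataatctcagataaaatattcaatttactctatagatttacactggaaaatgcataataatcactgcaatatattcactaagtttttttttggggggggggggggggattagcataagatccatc
RAP2.9 (chromosome 4, minus strand): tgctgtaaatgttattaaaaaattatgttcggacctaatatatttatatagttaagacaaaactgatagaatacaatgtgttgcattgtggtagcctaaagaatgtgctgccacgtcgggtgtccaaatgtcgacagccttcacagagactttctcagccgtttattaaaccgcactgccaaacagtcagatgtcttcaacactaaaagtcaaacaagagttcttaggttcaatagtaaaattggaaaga

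Over the whole module, GCCGCC on either strand was present in 2 of 65 windows of 250 bases (3.08%), against 2.06% of the 20833 genes with a WT mean of at least 50 for which a window could be read. In windows of 1000 bases it was present in 5 of 65 (7.69%), against 8.91%. CACGTG was present in 8 of 65 windows of 250 bases (12.3%, against 6.96%) and in 23.1% of those of 1000 bases, against 15.4%. CCGAC, the core of the element bound by DREB factors, was present in 12 windows of 250 bases (18.5%, against 12.8%) and in 41.5% of those of 1000 bases, against 38.6%. TTGACC, a core of the W-box bound by WRKY factors, was present in 5 windows of 250 bases (7.69%, against 12.1%), a direction that turned in windows of 1000 bases (38.5%, against 35.6%). TGACG was present in 14 windows of 250 bases (21.5%, against 19.3%) and in 56.9% of those of 1000 bases, against 55.1%, and TGTCTC in 6 (9.23%, against 10.9%) and in 32.3%, against 40.4%. All motifs were sought on both strands, and none contains another, although matches that lie side by side may share letters. The median GC content of the windows was 30.8% in the module and 31.6% over the same 20833 genes. A match here is a description of letters and not a binding site.

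The 65 genes comprised 58 protein-coding genes, 5 non-coding RNA genes and 2 transcribed pseudogenes, spread over the 5 chromosomes with 15, 9, 12, 9 and 20 members. Of the protein-coding members 27 (46.6%) had a single annotated exon, against 13.6% of the 19439 protein-coding genes with a WT mean of at least 50, and the median number of exons was 2 against 5. Their median transcript was 1168.5 bases long, against 1744 bases. Sorted by what their annotated products do, 14 members belong to the cell wall and cell surface, 7 are related to defence, 5 encode transcription factors or a partner protein, 5 transporters, 5 metabolic enzymes, 4 signalling proteins, 3 peptide precursors, 3 seed and desiccation proteins and 2 SAUR proteins. The others were 10 proteins of other or unknown function and the 7 non-coding genes and pseudogenes.

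The median member was 1.15 above WT in ERF115OX and 1.14 above WT in ERF114OX on the log2 scale of L, and 1.45 below WT in ERF115-SRDX (median -1.45). Over all 23375 genes with a mean of at least 10, the medians were 0.00, -0.01 and 0.00. The differences from WT ran from 0.80 to 3.14 in ERF115OX and from 0.80 to 2.63 in ERF114OX, and in ERF115-SRDX from -6.10 to -0.84. In 43 of the 65 genes the fall in ERF115-SRDX was larger in size than either difference in the overexpressors. It was at least 3 in 14 genes, whereas 6 genes were at least 2 above WT in 1 or both overexpressors. Every ERF115OX library exceeded every WT library for 63 members, where 22.5% of all tested genes behaved so. The corresponding numbers were 61 members and 24.1% for ERF114OX, and 63 members and 30.4% for ERF115-SRDX below WT. Because the rule used these contrasts, nothing is read from those counts.

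**Figure D1:**
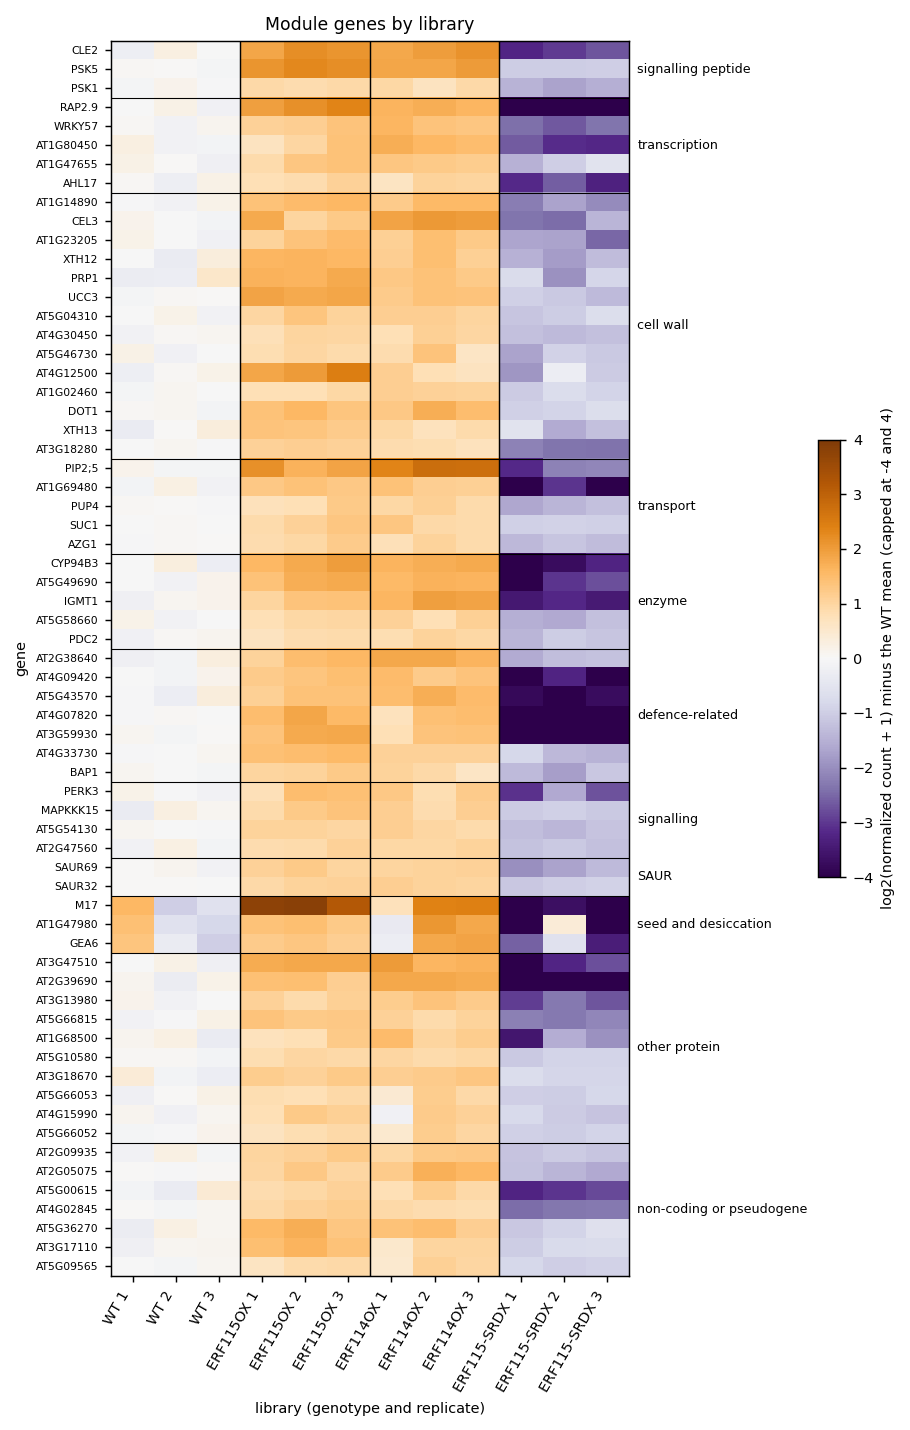
Each row is 1 of the 65 module genes, grouped by role, and each column is 1 of the 12 libraries. Colour gives log2(normalized count + 1) minus the mean of the 3 WT libraries, capped at -4 and 4. Both overexpressors are orange and ERF115-SRDX is purple in nearly every row, and the 3 seed and desiccation genes are the rows in which WT 1 stands farthest above WT 2 and WT 3.

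Among the peptide precursors, CLE2 differed from WT by at least 1.97 in every line on the scale of L, the largest such minimum in the module. CLE2 encodes a small secreted peptide of the CLE family, whose members signal through receptor kinases. It stood at 104, 146 and 121 normalized counts in WT, 447, 573 and 527 in ERF115OX, 437, 487 and 537 in ERF114OX and 12.1, 14.6 and 17.8 in ERF115-SRDX. The groups did not overlap with WT, and both overexpressors occupied the same range. The differences of mean log2(normalized count + 1) from WT, with the standard error of the limma fit, were 2.06 ± 0.17, 1.98 ± 0.17 and -2.98 ± 0.17 in the order ERF115OX, ERF114OX and ERF115-SRDX, an order and scale kept for single genes below.

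PSK5 stood at 302, 294 and 274 in WT, 1251, 1418 and 1329.7 in ERF115OX, 1065, 1052 and 1173 in ERF114OX and 142, 143 and 145 in ERF115-SRDX. Its 3 libraries of a genotype lay close together, and ERF115-SRDX was left at 49.5% of the WT mean. Means were 4.60 and 3.78 times WT in ERF115OX and ERF114OX, so that PSK5 combined one of the larger rises with one of the smaller falls. Its value in ERF115-SRDX 3 implies 146.77 reads and is the 1 value of 316348 above 0 that is not a whole number of reads. PSK1, which encodes a precursor of the same peptide hormone, showed the reverse balance. It stood at 519, 604 and 533 in WT, 1045, 994 and 1047 in ERF115OX, 1060.1, 879 and 1033 in ERF114OX and 199.5, 167 and 191 in ERF115-SRDX, with differences of 0.90 ± 0.09, 0.84 ± 0.09 and -1.57 ± 0.09.

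The other phytosulfokine precursor genes that could be tested did not follow. PSK2 rose in ERF115OX (1.37 ± 0.20, limma adjusted p = 0.00043) and fell in ERF114OX (-1.45 ± 0.20, adjusted p = 0.00023). Its call in ERF115-SRDX, at -0.59 ± 0.20 (limma adjusted p = 0.026), was lost under quantile normalization (0.12), with the photosynthetic level as a covariate (0.53), in a fit of those 2 groups alone and without WT 1, WT 3 or ERF115-SRDX 1. PSK4 rose by 0.94 ± 0.15 in ERF115OX and by 1.12 ± 0.15 in ERF115-SRDX (limma adjusted p = 0.00066 and 3.3e-05). Its call in ERF114OX, at 0.41 ± 0.15 (limma adjusted p = 0.045), was lost in 8 of 17 other settings, among them TMM scaling (0.067) and the fits without WT 1, WT 2, ERF114OX 2 or ERF114OX 3. PSK3, at 0.39 ± 0.15 in ERF115-SRDX (limma adjusted p = 0.044), lost its call in 10 of 17 other settings, among them TMM scaling (0.053) and the fits without WT 2, WT 3, ERF115-SRDX 2 or ERF115-SRDX 3, and was not called in the overexpressors (-0.19 ± 0.15 and -0.18 ± 0.15). Background rates for these calls, and a limit of the photosynthetic covariate, are given with the gene families below.

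**Figure D2:**
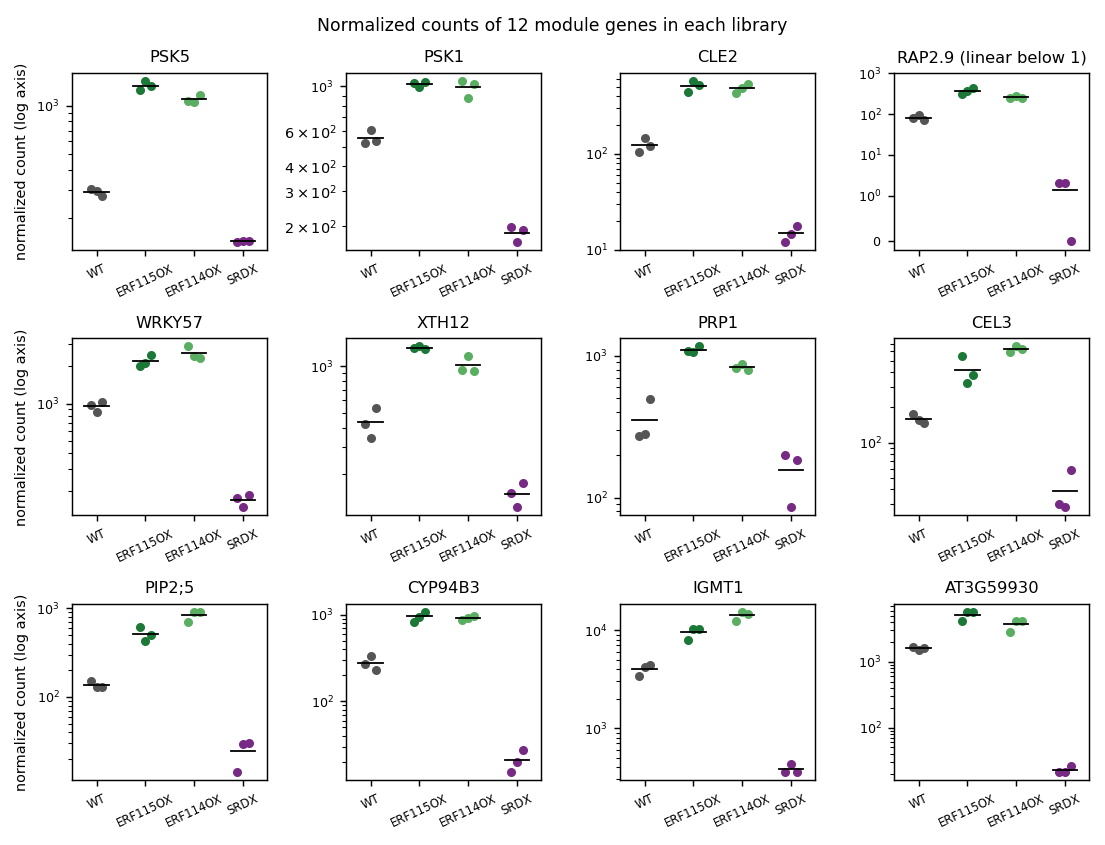
Each panel plots 1 module gene, with 1 point per library and a line at the mean of 3, on a log axis of normalized counts that is linear below 1 for RAP2.9, which has a value of 0. The groups are WT, ERF115OX, ERF114OX and ERF115-SRDX (SRDX), and in all 12 panels both overexpressors lie above WT and ERF115-SRDX below it, with no overlap.

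Among the transcription factors, RAP2.9 had the widest span. RAP2.9 is itself an AP2/ERF protein, of the DREB branch. It stood at 79.7, 93.6 and 71.7 in WT, 317, 369 and 425 in ERF115OX, 253, 272 and 249 in ERF114OX and 2.02, 2.09 and 0 in ERF115-SRDX. The ERF115-SRDX libraries held 2, 2 and 0 reads of it, so no fold is given for that line. WRKY57, a WRKY factor known for drought tolerance and for a link between jasmonate and auxin in leaf senescence, stood at 968, 854 and 1019.9 in WT, 1986, 2104 and 2436 in ERF115OX, 2871, 2410.1 and 2340.4 in ERF114OX and 175, 147 and 184 in ERF115-SRDX. Its means were 2.30 and 2.68 times WT in the overexpressors and 17.8% of WT in ERF115-SRDX. AT1G80450 encodes a VQ-motif protein, a class of proteins known to bind WRKY factors, and it stood at 207, 158 and 160.3 in WT, 275, 344 and 456 in ERF115OX, 581, 519 and 483 in ERF114OX and 27.2, 18.8 and 17.8 in ERF115-SRDX. AHL17, an AT-hook DNA-binding protein, and AT1G47655, a Dof zinc finger protein, were at 1.86 and 1.86 times WT (AHL17) and at 2.30 and 2.35 times WT (AT1G47655) in the overexpressors. In ERF115-SRDX they separated, with AHL17 left at 12.2% of WT and AT1G47655 at 50.6%.

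The enzymes had median differences of 1.25, 1.61 and -3.21 on the scale of L. CYP94B3 is the cytochrome P450 that hydroxylates jasmonoyl-isoleucine, the active form of the hormone jasmonate, and so begins its removal. It stood at 273, 338 and 229 in WT, 835, 956 and 1087 in ERF115OX, 869, 915 and 958 in ERF114OX and 15.1, 19.8 and 27.7 in ERF115-SRDX, with differences of 1.78 ± 0.19, 1.72 ± 0.19 and -3.71 ± 0.19. The overexpressors were at 3.43 and 3.27 times the WT mean, and the repressor line was left at 7.46%. AT5G49690, a UDP-glycosyltransferase of unassigned substrate, stood at 126, 114 and 141 in WT, 335, 423 and 443 in ERF115OX, 372, 405 and 397 in ERF114OX and 6.05, 14.6 and 17.8 in ERF115-SRDX. PDC2, a pyruvate decarboxylase of ethanol fermentation, and AT5G58660, a 2-oxoglutarate-dependent oxygenase, differed less, at 1.75 and 1.87 times the WT mean in ERF115OX and at 44.0% and 36.2% of it in ERF115-SRDX.

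IGMT1 methylates hydroxylated indole glucosinolates, sulfur-containing defence compounds of the cabbage family. It stood at 3443, 4180.1 and 4399 in WT, 7980.1, 10224 and 10357 in ERF115OX, 12289, 15472 and 14744 in ERF114OX and 355, 433 and 359.8 in ERF115-SRDX. Its differences were 1.25 ± 0.13, 1.82 ± 0.13 and -3.38 ± 0.13, and ERF114OX lay above ERF115OX in every library. The relatives IGMT2, IGMT3 and IGMT4 match its transcript at 89.0% to 91.0% identity over 82.3% to 89.6% of its length, so some reads may be shared. IGMT2 and IGMT4 fell in both overexpressors, and IGMT3 fell in ERF114OX. In ERF114OX IGMT2 fell by 1.76 ± 0.10, IGMT3 by 1.05 ± 0.10 and IGMT4 by 2.13 ± 0.20, with limma adjusted p of 7.4e-07, 2.2e-05 and 1.8e-05. In ERF115OX IGMT2 fell by 0.49 ± 0.10 and IGMT4 by 0.81 ± 0.20 (limma adjusted p = 0.0041 and 0.0078), and IGMT3 was not called (-0.21 ± 0.10, adjusted p = 0.13). In ERF115-SRDX the relatives were below WT as IGMT1 was, at -1.71 ± 0.10, -1.04 ± 0.10 and -1.23 ± 0.20 (limma adjusted p = 4.0e-08, 2.5e-06 and 0.00018), of which the call of IGMT4 was lost with the photosynthetic level as a covariate (0.18).

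**Figure D3:**
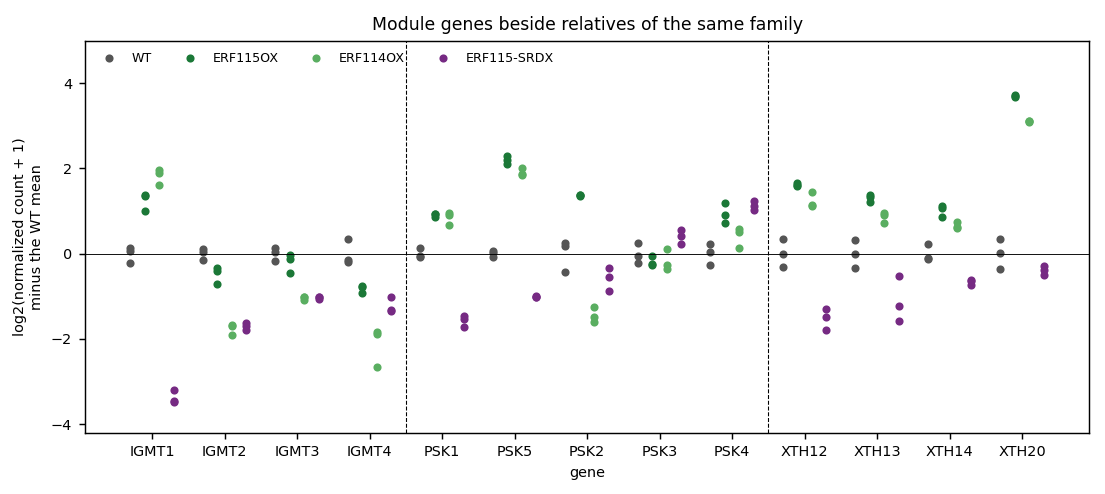
Points give log2(normalized count + 1) minus the WT mean in each of the 12 libraries for module genes and close relatives. IGMT1, PSK1, PSK5, XTH12 and XTH13 are members and the others are not. IGMT1 is above WT in both overexpressors where IGMT2, IGMT3 and IGMT4 lie at or below it, and PSK2 is above WT in ERF115OX and below it in ERF114OX.

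Among the transporters, PIP2;5, an aquaporin of the plasma membrane, stood at 149.7, 129 and 128 in WT, 614, 431 and 504 in ERF115OX, 702, 918 and 909 in ERF114OX and 14.1, 29.2 and 30.6 in ERF115-SRDX. It was left at 18.2% of WT in ERF115-SRDX, where library 1 was the lowest. AT1G69480 has the EXS domain of the family that includes the phosphate exporter PHO1. It stood at 229, 293 and 223 in WT, 599, 643 and 600.3 in ERF115OX, 645, 540.0 and 536 in ERF114OX and 5.04, 29.2 and 7.91 in ERF115-SRDX, where library 2 was above the other two. The sucrose-proton symporter SUC1 stood at 5129, 5395 and 5154 in WT, 9639, 11110.2 and 12897 in ERF115OX, 12865, 9946 and 9743 in ERF114OX and 2722, 2736 and 2680.1 in ERF115-SRDX and had little spread in the repressor line, at 51.9% of WT. AZG1 and PUP4, transporters of purine-type compounds, were at 41.7% and 37.3% of WT in ERF115-SRDX and at 2.01 and 1.93 times WT in ERF115OX.

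The cell wall and cell surface group was the largest, with median differences of 1.35, 1.15 and -1.18. XTH12, which cuts and rejoins xyloglucan chains in the wall, stood at 423, 341 and 538 in WT, 1306, 1340.0 and 1284 in ERF115OX, 946, 1168 and 924 in ERF114OX and 151, 122 and 174 in ERF115-SRDX. CEL3, an endoglucanase, stood at 175, 157 and 146 in WT, 552, 322 and 375 in ERF115OX, 592, 662 and 627 in ERF114OX and 30.2, 28.2 and 58.3 in ERF115-SRDX. CEL3 was more even in ERF114OX than in ERF115OX, where library 1 was high. PRP1, a proline-rich wall protein made in root hairs, stood at 274, 281 and 498 in WT, 1079, 1059 and 1163 in ERF115OX, 819, 880.0 and 794 in ERF114OX and 201, 85.6 and 184 in ERF115-SRDX, and WT 3 lay well above WT 1 and WT 2.

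Another 4 members act on pectin or are annotated as relatives of such enzymes. AT1G14890, a pectin methylesterase inhibitor, stood at 706, 654 and 814 in WT, 1892, 2086 and 2161 in ERF115OX, 1653, 2123 and 2106 in ERF114OX and 153, 221 and 174 in ERF115-SRDX. The other inhibitor gene, AT1G23205, stood at 223, 197 and 177 in WT, 413, 509 and 567 in ERF115OX, 427, 546 and 469 in ERF114OX and 61.5, 60.6 and 33.6 in ERF115-SRDX. Both inhibitor genes were well below WT in every ERF115-SRDX library, at 25.2% and 26.1% of its mean, and the pectin lyase-like genes AT5G04310 and AT1G02460 at 52.0% and 54.4%. The glycine-rich wall proteins DOT1, AT4G30450 and AT5G46730 were at 2.70, 1.88 and 1.86 times WT in ERF115OX. In ERF115-SRDX they were at 55.7%, 41.7% and 43.3% of WT. UCC3, a copper protein of the plasma membrane surface, stood at 176, 193 and 187 in WT, 688, 646 and 671 in ERF115OX, 428, 484 and 474 in ERF114OX and 95.7, 87.7 and 73.2 in ERF115-SRDX. The lipid-transfer protein genes AT3G18280 and AT4G12500 were left at 20.2% and 52.4% of WT in ERF115-SRDX.

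The defence-related genes had the lowest median of the groups in ERF115-SRDX, -3.92, with median rises of 1.38 and 1.24. AT3G59930, a defensin-like protein gene, stood at 1695, 1529.6 and 1635 in WT, 4113, 5657 and 5763 in ERF115OX, 2794, 4147 and 4205 in ERF114OX and 21.2, 20.9 and 25.7 in ERF115-SRDX. It was left at 1.39% of WT, the largest fall of the module on the scale of L (-6.10), and ERF114OX 1 was its lowest overexpressor library. By means without the added 1, AT4G07820 was left at a lower share of WT, 1.06%, from 2, 2 and 0 reads. Its relative AT5G33355, 88.8% identical over 82.5% of its length, had means of 10.8, 69.0 and 106 in WT, ERF115OX and ERF114OX and no read in ERF115-SRDX, and at a WT mean below 50 it is not a member.

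AT4G07820, of the CAP superfamily that includes pathogenesis-related protein PR-1, stood at 125, 134 and 128 in WT, 366, 474 and 379 in ERF115OX, 213, 349 and 360.0 in ERF114OX and 2.02, 2.09 and 0 in ERF115-SRDX, which correspond to 2, 2 and 0 reads in the last. The other CAP gene, AT4G33730, was left at 43.5% of WT. AT5G43570, a serine protease inhibitor of the potato inhibitor I type, stood at 466, 400.0 and 615 in WT, 1042, 1287 and 1278 in ERF115OX, 1349, 1618 and 1387 in ERF114OX and 34.3, 25.1 and 35.6 in ERF115-SRDX. The TIR-NBS gene AT4G09420, of the class of intracellular immune receptors, stood at 157, 146 and 174 in WT, 365, 405 and 441 in ERF115OX, 452, 369 and 412 in ERF114OX and 4.03, 15.7 and 7.91 in ERF115-SRDX. Both were at or below 6.41% of WT in ERF115-SRDX. AT2G38640, a LURP-one-like protein gene, and BAP1, a negative regulator of cell death, were left at 39.0% and 38.3%.

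The 4 signalling genes and 2 SAUR genes had median differences of -1.22 and -1.34 in ERF115-SRDX. SAUR69 and SAUR32, small proteins of a family whose genes respond to auxin, were at 2.17 and 2.03 times WT in ERF115OX and at 30.8% and 49.7% of it in ERF115-SRDX. PERK3, a receptor-like kinase with an extensin-like outer part, was left at 18.5%, and the kinase MAPKKK15 at 48.3%. The RING-type protein gene AT2G47560 and AT5G54130, which encodes a calcium-binding protein, were left at 44.0% and 41.5%.

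The 3 seed and desiccation genes were the least even. M17, a late embryogenesis abundant protein of seeds, stood at 117, 18.5 and 24.9 in WT, 529, 548 and 353 in ERF115OX, 63.9, 205 and 206 in ERF114OX and 1.01, 2.09 and 0 in ERF115-SRDX, or 1, 2 and 0 reads. GEA6, another protein of that class, stood at 103, 32.2 and 19.9 in WT, 95.7, 102 and 89.9 in ERF115OX, 33.9, 148 and 154 in ERF114OX and 6.05, 27.2 and 2.97 in ERF115-SRDX. AT1G47980, a desiccation-like protein gene, stood at 136, 33.2 and 27.9 in WT, 135, 138 and 119.8 in ERF115OX, 38.7, 218 and 183 in ERF114OX and 2.02, 66.8 and 0 in ERF115-SRDX. WT 1 was the highest WT library for all 3 genes and ERF114OX 1 the lowest ERF114OX library. GEA6 and AT1G47980 thus overlapped between WT and both overexpressors, and M17 between WT and ERF114OX. In ERF115-SRDX, GEA6 and AT1G47980 overlapped with WT as well, through library 2 (27.2 and 66.8). A list of 13 other seed reserve genes, 4 of them with a mean of at least 10, had mean log2 levels of 3.13, 1.37 and 2.66 in WT, 1.44 to 1.97 in ERF115OX, up to 3.23 in ERF114OX and 0.12, 1.55 and 0.42 in ERF115-SRDX. Its part in the levels of these 3 members was not tested, and without the 3 the mean level of the module was 8.39 to 8.44 in WT, 9.58 to 9.76 in ERF115OX, 9.59 to 9.70 in ERF114OX and 6.24 to 6.45 in ERF115-SRDX. The remaining member that overlapped with WT was AT4G15990, at 161, 131 and 156 in WT and 132, 346 and 317 in ERF114OX.

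Members of other or unknown function had a median difference of -1.58 in ERF115-SRDX. AT3G47510, annotated as an uncharacterized protein, stood at 163, 192 and 144 in WT, 567, 587 and 596 in ERF115OX, 668, 507 and 532 in ERF114OX and 6.05, 16.7 and 23.7 in ERF115-SRDX. AT2G39690, with the domain DUF547, stood at 166, 124 and 172 in WT, 407, 419.9 and 337 in ERF115OX, 546, 546 and 522 in ERF114OX and 6.05, 4.18 and 5.93 in ERF115-SRDX and was left at 3.49% of WT. Of the rest, AT5G66815, AT1G68500 and the SKI/DACH domain gene AT3G13980 were left at 20.9%, 21.2% and 16.0%, and AT5G10580, AT3G18670, AT5G66053, AT5G66052 and AT4G15990 at 49.7% to 55.2%. The non-coding genes and pseudogenes ran from 10.7% (AT5G00615) to 55.7% (AT3G17110) of WT in ERF115-SRDX.

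Some members share their place in the genome. In the TAIR10.1 annotation 8 members form 3 groups of overlapping genes, so the 65 genes lie at 60 separate loci. One group joins AT5G49690, the non-coding AT5G00615 and AHL17, which were all left at 12.2% of WT or less in ERF115-SRDX. The others join AT5G66052, AT5G66053 and AT5G09565, and AT2G47560 and AT2G09935. The kit keeps strand, but how the counting used it is not stated, so reads of such neighbours may be shared. XTH12 and XTH13 lie near each other and are 87.8% identical over 83.2% of the XTH12 transcript, so reads may be shared between them.

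The module is 1 share of the genes raised by both overexpressors. Of the 193 genes at least 0.8 above WT in both overexpressors, 65 were at least 0.8 below WT in ERF115-SRDX, 104 lay between the thresholds and 24 were at least 0.8 above WT there as well. In ERF115-SRDX 2726 genes with a WT mean of at least 50 were at least 0.8 below WT. The members nearest to that threshold were AT3G17110 (-0.84) and DOT1 (-0.84), and the nearest genes outside were IRT2 (-0.76) and AT3G54940 (-0.75). At the ERF115OX threshold AT5G66052 (0.80) and PDC2 (0.81) were inside and AT4G39780 (0.799) and ATSBT5.2 (0.77) outside. At the ERF114OX threshold AT3G18280 (0.80) and AT4G15990 (0.82) were inside and PIP2A (0.79) and AT4G33770 (0.79) outside. At the WT mean GEA6 (51.7) and M17 (53.4) were inside and AT2G01021 (49.0) and AT4G13575 (47.6) outside.

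**Figure D4:**
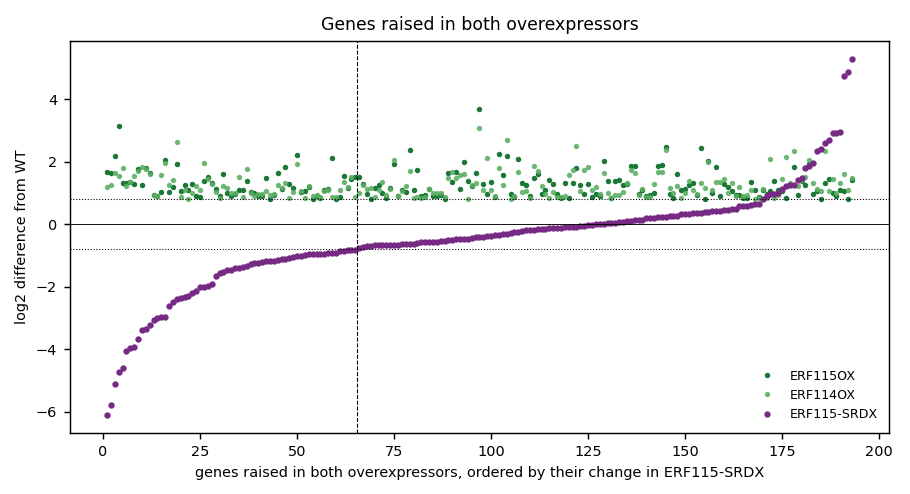
The 193 genes raised in both overexpressors are ordered along the x axis by their log2 difference from WT in ERF115-SRDX, and the y axis gives that difference in each line. Dotted lines mark -0.8 and 0.8, and the dashed line separates the 65 module genes on the left. The values in ERF115-SRDX run close to the threshold on both sides, from -0.84 for the nearest member to -0.76 for the nearest gene outside.

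The contrast that the rule did not set was the one between the overexpressors, and it asks whether ERF115 and ERF114 raise the module to the same level. Both had to pass the same threshold against WT, which draws their values together. In the limma fit of all 4 groups 1613 of 23375 genes differed between ERF115OX and ERF114OX at a Benjamini-Hochberg adjusted p under 0.05 (6.9%). Of the module genes 6 of 65 differed (9.23%), a share near that of all genes. The difference was under 0.5 on the log2 scale in 56 of the 65. The median absolute difference was 0.13 in the module and 0.13 over all tested genes. Means were higher in ERF115OX for 34 members and in ERF114OX for 31.

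Of the 6 genes, 5 were higher in ERF115OX, as were 4.77% of all tested genes, and 1 was higher in ERF114OX, as were 2.13%. UCC3 stood at 668 ± 21.3 (SD, n = 3) in ERF115OX and 462 ± 29.9 in ERF114OX, a difference of 0.53 ± 0.11 (limma adjusted p = 0.012), and all ERF115OX libraries exceeded all ERF114OX libraries. The lipid-transfer protein gene AT4G12500 had the largest difference of the 6, 1.24 ± 0.32 (limma adjusted p = 0.038), from 808 ± 185 against 340 ± 60.8. The pseudogene AT3G17110 differed by 0.65 ± 0.14 (limma adjusted p = 0.016) and AT3G18280 by 0.29 ± 0.06 (limma adjusted p = 0.013). PSK5 was 1.22-fold higher in ERF115OX, a difference of 0.28 ± 0.08 (limma adjusted p = 0.045). IGMT1 was 1.49-fold higher in ERF114OX, a difference of -0.58 ± 0.13 (limma adjusted p = 0.019), with 3 of 3 libraries above all of ERF115OX. AT4G12500 has a relative, AT4G12490, 85.8% identical over 70.6% of its length, with means of 223 in ERF115OX and 33.0 in ERF114OX, so shared reads may enter its value. With 1 library left out, the call of AT4G12500 was lost without ERF115OX 2, ERF115OX 3, ERF115-SRDX 3 or any ERF114OX library (adjusted p up to 0.135). That of PSK5 held in 8 of 23 other settings and was lost without any 1 library other than WT 3 or ERF115OX 1 (up to 0.195). The call of AT3G17110 was lost without ERF115OX 2 (0.084), that of AT3G18280 without ERF115OX 2 or ERF114OX 3 (up to 0.068) and that of IGMT1 without ERF114OX 2 or 3 (up to 0.081), while that of UCC3 held in all of them. PIP2;5, at -0.71 ± 0.25 (limma adjusted p = 0.11), and M17, at 1.74 ± 0.65 (limma adjusted p = 0.14), were not called, although AT4G12500 was the only called gene with a larger difference in size than PIP2;5.

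**Figure D5:**
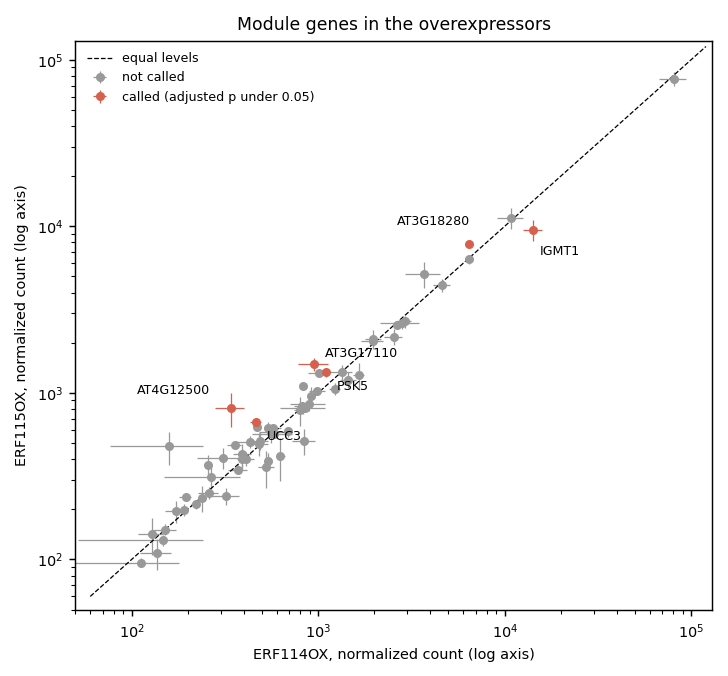
Each of the 65 module genes is placed by its mean normalized count in ERF114OX (x, log axis) and in ERF115OX (y, log axis), with bars of 1 SD over 3 libraries, and the dashed line marks equal levels. The 6 genes called between the lines are coloured and named. Most members lie close to the line, and IGMT1 is the named gene below it.

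Relatives of the members were counted to see how far the pattern extended within families. Over all tested genes 16.4% were called higher and 15.7% lower in ERF115OX, 17.5% higher and 19.6% lower in ERF114OX, and 23.4% higher and 26.6% lower in ERF115-SRDX, and 725 of 23375 (3.1%) met all 3 at once, that is, were higher in both overexpressors and lower in ERF115-SRDX. With the photosynthetic level as a covariate, 13.6% were called higher and 12.6% lower in ERF115-SRDX, and 387 (1.66%) met all 3. That level was 8.43, 12.85 and 8.64 in ERF115-SRDX against 14.59 to 15.60 in WT. The covariate fit therefore separates the level poorly from the line, and calls in ERF115-SRDX can be lost for that reason alone. Of the 28 aquaporin genes other than PIP2;5 that were tested, 15 were called higher and 2 lower in ERF115OX, 15 higher and 2 lower in ERF114OX, and 18 lower and 8 higher in ERF115-SRDX. Of the 28, 11 met all 3. Among these 11 were PIP1A, at 0.84 ± 0.11, 0.68 ± 0.11 and -2.95 ± 0.11, PIP2B, at 0.47 ± 0.11, 0.55 ± 0.11 and -1.30 ± 0.11, and TIP2;2 of the vacuole membrane, at 0.69 ± 0.13, 0.95 ± 0.13 and -2.16 ± 0.13. The same 11 were called under TMM scaling, and 10 of them under quantile normalization, where GAMMA-TIP was not. With the photosynthetic level as a covariate 7 of the 11 met all 3, PIP1A, PIP2B and TIP2;2 among them. The call in ERF115OX was lost in 7 of 17 other settings for GAMMA-TIP, in 6 for PIP2;8 and in 3 for TIP2;3. Fits with 1 library left out were among these settings for each of them. The rest of the 11 kept that call in all 17. PIP2A, which is 1 of the 11, missed the module by its threshold in ERF114OX alone.

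Of the other 24 xyloglucan endotransglucosylase genes, XTH14 and XTH20 met all 3 calls. XTH20 rose by 3.70 ± 0.13 in ERF115OX and by 3.11 ± 0.13 in ERF114OX (limma adjusted p = 8.7e-09 and 7.2e-08) and was below WT in ERF115-SRDX, at -0.39 ± 0.13 (adjusted p = 0.023). This last call was lost under quantile normalization (0.089), with the photosynthetic level as a covariate (0.33), in a fit of those 2 groups alone and without WT 1, WT 2, ERF115-SRDX 1 or ERF115-SRDX 3. XTH14 stood at 1.02 ± 0.09, 0.66 ± 0.09 and -0.67 ± 0.09. Of the other 84 AP2/ERF genes 11 met all 3 calls, of 121 UDP-glycosyltransferase genes 12 and of 113 pectin lyase and pectinesterase genes 5. Of 74 lipid transfer protein genes 8 did so, of 59 WRKY genes 5 and of 192 cytochrome P450 genes 6. Under TMM scaling the counts were 10, 12, 4, 8, 3 and 4 in this order. With the photosynthetic level as a covariate the counts were 7, 7, 3, 4, 3 and 4 in the same order. Of these last 4 cytochrome P450 genes, CYP71A27 and CYP94B1 were among the 6, whereas CYP94D1 and CYP71B11 were not. Of the 45 other extensin and proline-rich protein genes 3 met all 3 calls, 4 under TMM scaling and 1 with the photosynthetic level as a covariate. Of the 3 other phytosulfokine genes none did.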

How the data were processed

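Total RNA of roots was selected for poly(A) and made into strand-marked libraries with dUTP, per the labels' protocols. The deposited table is a normalized signal made by the authors with DESeq2, namely each gene's count over the size factor of its library. The tools were Trimmomatic 0.39, HISAT2 2.2.1, SAMtools 1.11 and featureCounts of Subread 2.0.1, per the submitters' processing notes; the sources used here give no build, annotation, strand setting or DESeq2 version. Names, products and promoters come from RefSeq's TAIR10.1, in which all 37884 genes matched a locus tag.

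The members, roles and lists were chosen with earlier results of these data known, and the added seed list and the roles after the members were seen. Named genes are the 20 with the largest smallest change from WT, members of transcription factor, phytosulfokine and recurring product families, genes beside each threshold, genes called between the overexpressors, and ERF115 and ERF114. Other members are named to account for all 65.

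Genes with a mean of at least 10 (23375) were fitted in limma 3.58.1 (R 4.3.3) as log2(normalized count + 1), which understates changes of low genes, over 4 groups with a variance trend; the test is two-sided with Benjamini-Hochberg adjustment at 0.05. The limma code was tested on simulated data. Whole reads were recovered for 99.9997% of values above 0 at a relative tolerance of 1e-06, and edgeR 4.0.16 and DESeq2 1.42.0 were run on them. Depth was 47242114 to 48343410 reads per library. Other pseudocounts, filters, scalings and left-out libraries were tried.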

Additional observations from a re-analysis of the deposited data

Results flagged for a closer look

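A difference between the overexpressors, which share the contrast with WT, was called for 6 module genes in limma. On the log2 scale, ERF115OX minus ERF114OX was 1.24 for AT4G12500, 0.65 for AT3G17110, 0.53 for UCC3, 0.29 for AT3G18280 and 0.28 for PSK5. It was -0.58 for IGMT1, the gene that was higher in ERF114OX. UCC3 kept its call in all 23 other settings, which change the fit or leave out 1 of the 12 libraries, AT3G17110 in 22, IGMT1 and AT3G18280 in 21, AT4G12500 in 17 and PSK5 in 8.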

How the results depend on the processing

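The module held 65 genes, and 33 at a threshold of 1 in place of 0.8. Under the other settings of the rule it held 54 to 97, and with 1 library left out 59 to 72. Leaving out WT 1 and ERF114OX 1 together gave 67 genes, of which 54 were shared, and leaving out ERF115-SRDX 1 and 3 together gave 68, of which 61 were shared; both settings were chosen after seeing the data. Quantile normalization gave 76 genes, 54 of them shared, and TMM scaling 59, all shared. Between the overexpressors, 1613 genes and 6 members were called. Fitting only those 2 groups called 917 genes and 10 members, DESeq2 called 2380 genes and 13 members, and edgeR 1608 and 7. With 1 ERF115OX or ERF114OX library left out the calls ran from 600 to 2204 genes and from 2 to 7 members. The lowest of these counts came without ERF115OX 2 (600 and 2), and 2 members were also called without ERF114OX 3. The cause of these differences was not tested. Replicate numbers did not pair the libraries of this contrast: same-numbered ERF115OX and ERF114OX libraries had correlations of deviations of -0.28, -0.10 and -0.12. Same-numbered ERF114OX and ERF115-SRDX libraries had mixed values, 0.44, 0.38 and -0.28. With the replicate block 1490 genes and 5 members were called. With the photosynthetic level as a covariate, chosen for the contrasts with WT after seeing the data, 6127 genes in place of 11707 were called in ERF115-SRDX. Scaling moved the median of all genes by less than 0.1. For members with 3 reads or fewer in each ERF115-SRDX library, counting error limits the size of the fall.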
